A study of Mus musculus with 42 samples.

Results

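The 42 mouse brain libraries of the series differed widely in the level of Ttr, the transcript of transthyretin. By that level 14 of them were taken as choroid plexus-rich and set against 16 choroid-poor libraries. Transthyretin carries thyroid hormone and is the most abundant secreted protein of the choroid plexus epithelium. The sides were chosen by Ttr alone, whatever the label. Levels were taken as CPM, raw counts scaled to a common library total, with 500 CPM or more for the Ttr-rich side and under 100 CPM for the Ttr-poor side. The remaining 12 libraries lay between these limits and belonged to neither side. Because Ttr chose the sides, every gene's difference between them is given as a description, without a test.

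The choroid plexus is a fold of secretory epithelium over a core of vessels and connective tissue, and it hangs into the ventricles of the brain. Its epithelial cells make the cerebrospinal fluid, moving sodium, chloride, bicarbonate and water from blood to ventricle, and they load the fluid with hormone carriers, vitamins and growth factors. In mouse, plexus tissue lies against the hippocampal fimbria in the lateral ventricle and against the cerebellum in the fourth ventricle.

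Of the libraries, 22 were labelled hippocampus and 20 cerebellum. Within each label, mice had been on a western diet with NaKtide, a western diet, a control diet with NaKtide, or a control diet, for 12 weeks. The western diet held 42% fat and the control diet 11% fat. NaKtide is a peptide from the Na,K-ATPase that blocks the signalling of this pump through the kinase Src. It was expressed from a transgene switched on with 300 mg/kg doxycycline in the diet, and the labels leave it unsaid which promoter drove it and whether the other mice received doxycycline. The hippocampus label held 6, 5, 5 and 6 libraries in these 4 groups and the cerebellum label 5 in each. Nothing in the labels says that libraries came from separate animals, so p-values measure the spread between these libraries, which may be technical.

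Library totals ran from 4669374 to 9013464 counts on the Ttr-rich side and from 5364756 to 9521002 on the Ttr-poor side. The labels of the regions were poorly matched by neuronal markers. A set of 8 genes of cerebellar granule and Purkinje cells summed to between 23.1 and 440.3 CPM in all but 2 of the cerebellum-labelled libraries, inside the range of 13.3 to 446.3 CPM of the hippocampus-labelled ones. The exceptions were cerebellum western 3, at 4017 CPM, and cerebellum control NaKtide 5, at 1717 CPM, both Ttr-poor. Region names below are therefore the names on the labels. Xist was at 5 CPM or more in 4 libraries, of which 1 was Ttr-poor (hippocampus western NaKtide 6) and 3 on neither side. Hippocampus control 5 and 6 resembled each other more than any other libraries of 1 group did. The squared difference of their counts averaged 2.89 times that of counting error per gene, against 9.5 to 157.3 in the other same-group pairs, and they were kept as 2 samples.

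Ttr (ENSMUSG00000061808) had 619.2, 2122 and 5184 CPM as lowest, median and highest value in the 14 Ttr-rich libraries, against 6.13, 21.8 and 46.1 CPM in the 16 Ttr-poor libraries. The rule leaves a gap around its limits. The nearest library inside the upper limit, cerebellum control NaKtide 3, had 619.2 CPM (95% Wilson interval 601.7 to 637.2), and the nearest outside, hippocampus control NaKtide 5, had 490.3 CPM (473.7 to 507.4). At the lower limit, cerebellum control NaKtide 4 had 46.1 CPM (41.1 to 51.8) and cerebellum control NaKtide 1 had 101.5 CPM (93.7 to 110.0). These intervals cover counting error only, and they show that 2 of the 12 libraries between the sides lay within counting error of a limit.

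The Ttr-rich side was made of 2 separate ranges. The 7 Ttr-rich libraries labelled hippocampus held 2517 to 5184 CPM of Ttr (median 4321), and the 7 labelled cerebellum held 619.2 to 1726 CPM (median 1067), with no overlap. Across the hippocampus label, the high libraries were western NaKtide 2 with 4966 CPM, western 1 with 2608 CPM, control NaKtide 2, 3 and 4 with 3630, 4321 and 5184 CPM, and control 2 and 4 with 2517 and 5097 CPM. In the cerebellum label they were western NaKtide 1, 3 and 4 with 1097, 1067 and 651.1 CPM, western 5 with 1726 CPM, control NaKtide 3 with 619.2 CPM, and control 1 and 3 with 740.8 and 1607 CPM. Every labelled group thus held at least 1 Ttr-rich library.

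**Figure D1:**
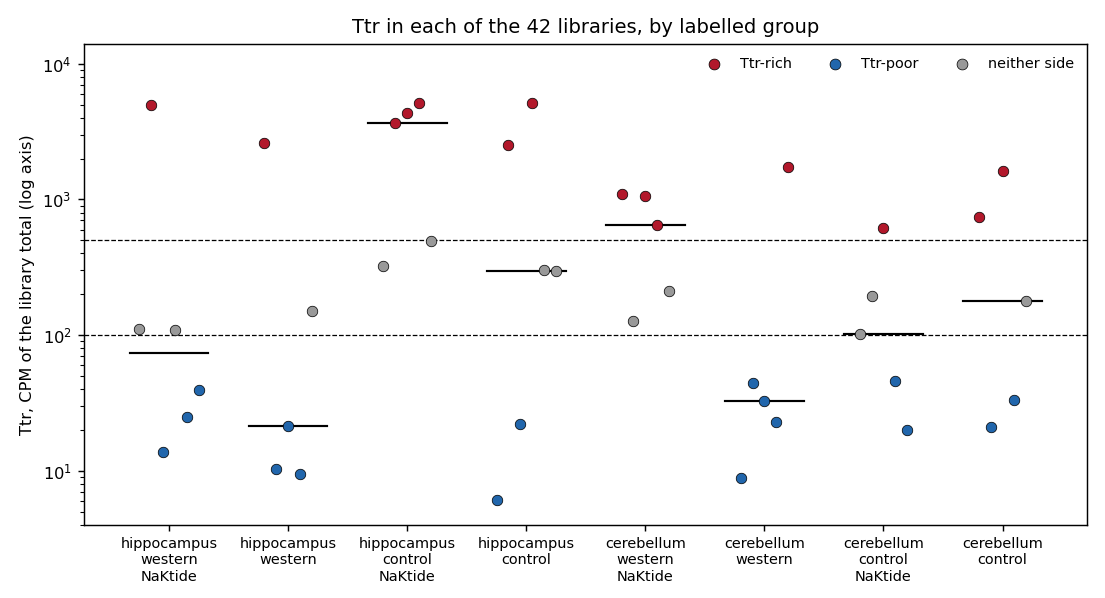
Ttr in CPM of the library total (log axis) in each of the 42 libraries, by labelled group. Points are libraries in the order of their replicate numbers, bars are group medians, and dashed lines mark 500 and 100 CPM. In the hippocampus western group 1 library stands at 2608 CPM and 3 lie between 9.37 and 21.3 CPM.

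No label passed the test of its spread over the sides. In two-sided Fisher exact tests over the 30 libraries of the sides, 46.7% of the hippocampus-labelled libraries (7 of 15) and 46.7% of the cerebellum-labelled ones (7 of 15) were Ttr-rich (p = 1). Western diet libraries were Ttr-rich in 37.5% (6 of 16) and control diet libraries in 57.1% (8 of 14), with an exact p of 0.464. NaKtide libraries were Ttr-rich in 61.5% (8 of 13) and libraries without it in 35.3% (6 of 17), with an exact p of 0.269. The widest gap was that of the diet within the hippocampus label, where 25.0% of western (2 of 8) and 71.4% of control libraries (5 of 7) were Ttr-rich (exact p = 0.132). None of the 7 tests passed, the lowest adjusted p being 0.734. With 1 limit of 200 CPM dividing all 42 libraries, 18.2% of western (2 of 11) and 81.8% of control libraries (9 of 11) of the hippocampus label lay above it (exact p = 0.00892, adjusted p = 0.0625). The 9 include the closely alike hippocampus control 5 and 6, at 299.4 and 296.5 CPM. This p takes them as separate libraries, and the test was not repeated at this limit with them as 1. A p that misses the threshold at this number of libraries does not show that the shares were alike.

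By group, cerebellum western NaKtide and hippocampus control NaKtide were the only groups without a Ttr-poor library, each with 3 rich, 0 poor and 2 on neither side. Cerebellum western held 1 rich and 4 poor libraries. The hippocampus groups western NaKtide and western each held 1 rich and 3 poor libraries. Hippocampus control and cerebellum control each held 2 rich and 2 poor libraries, and cerebellum control NaKtide held 1 rich and 2 poor.

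In all, 16619 genes with a mean of at least 1 CPM over the 42 libraries were described. A gene was counted as higher or lower where no library of one side overlapped the other and the means differed at least 2-fold. Only 8 genes (0.0481% of those described) were higher in every Ttr-rich library than in every Ttr-poor library, and 0 (0%) were lower. Of the 8, 6 belong to a set of 46 choroid plexus epithelium genes: Ttr, which chose the sides, and 1500015O10Rik, Aqp1, Kcne2, Tmem72 and Wfdc2. The other two, Prr32 and 2900040C04Rik, belong to no list, and the second was named after its values were seen.

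By the means alone, 197 genes (1.19%) were at least 2-fold higher on the Ttr-rich side and 161 (0.969%) at least 2-fold lower. Among the 46 choroid plexus epithelium genes these numbers were 32 and 0, and among the 45 without Ttr 31 and 0. Ttr, whose place was fixed by the rule, is included in the later counts of choroid genes over the sides. The filter on low values passed 43 of the 46, and Cldn3, Lmx1a and Tfap2a did not pass it. It takes the mean over all 42 libraries, so a gene can pass through the Ttr-rich libraries alone. Wfdc2, for example, averaged 9.74 CPM in Ttr-rich, 0.154 CPM in Ttr-poor and 0.528 CPM in the libraries on neither side. The counts without overlap or at 2-fold therefore include genes that the filter admitted by their Ttr-rich values. The ratio of the means, Ttr-rich over Ttr-poor, had a median of 5.04 over the set, 4.91 without Ttr, and 0.948 over all genes described. Bulk libraries do not tell fewer cells of a type from less RNA per cell, and this holds for every level below.

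The promoters of 3 set members whose levels followed Ttr closely over the 42 libraries are shown here, since their genes moved together from library to library. Each runs from 250 bases before to 50 bases after the RefSeq start site (GRCm38.p6, plus strand). They belong to Ecrg4, the RefSeq name of 1500015O10Rik, at chr1:43730352-43730651, to Aqp1 at chr6:55336049-55336348 and to Kcne2 at chr16:92292139-92292438, the first of 2 starts listed.
Ecrg4: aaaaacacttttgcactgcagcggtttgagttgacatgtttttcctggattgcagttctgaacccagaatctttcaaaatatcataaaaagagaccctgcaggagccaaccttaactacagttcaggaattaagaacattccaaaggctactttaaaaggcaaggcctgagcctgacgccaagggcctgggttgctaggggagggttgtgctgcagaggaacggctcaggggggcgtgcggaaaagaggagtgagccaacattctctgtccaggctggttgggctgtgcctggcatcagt
Aqp1: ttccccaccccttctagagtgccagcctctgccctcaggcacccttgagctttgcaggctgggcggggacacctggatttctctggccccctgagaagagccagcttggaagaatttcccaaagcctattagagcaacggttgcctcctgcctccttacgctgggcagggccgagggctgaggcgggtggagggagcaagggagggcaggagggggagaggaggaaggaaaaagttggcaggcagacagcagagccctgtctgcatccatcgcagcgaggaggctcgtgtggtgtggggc
Kcne2: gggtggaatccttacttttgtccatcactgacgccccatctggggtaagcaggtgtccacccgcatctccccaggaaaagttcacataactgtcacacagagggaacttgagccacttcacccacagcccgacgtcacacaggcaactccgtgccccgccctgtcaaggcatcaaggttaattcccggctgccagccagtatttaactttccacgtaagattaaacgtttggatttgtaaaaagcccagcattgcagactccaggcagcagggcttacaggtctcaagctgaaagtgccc
Both strands were searched for TAATCC, the core bound by Otx-type homeodomain proteins, and GTAAACA, a forkhead core, neither of which contains the other. None of the 3 windows held either motif, so no base is in capitals. Among the 37 set members with a window in the table, TAATCC was found in 3 (Mfrp, Ace and Car14) and GTAAACA in 0. Of all 32851 promoter windows in the table, 7.06% held TAATCC and 3.65% held GTAAACA. The letters alone say nothing of whether a factor was bound.

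The secreted products were the most uniform group, with 8 of 8 genes at least 2-fold higher in the means on the Ttr-rich side. Their median ratio was 14.3, and the 8 include Ttr, which chose the sides. 1500015O10Rik, which encodes the secreted peptide precursor augurin, had 6.33, 40.9 and 164.9 CPM (lowest, median, highest) in Ttr-rich libraries, against 0.525, 1.33 and 4.85 CPM in Ttr-poor libraries. Its ratio of means was 36.2, and its Spearman correlation with Ttr, 0.90 over the 42 libraries, was the highest of any gene in the set other than Ttr. Wfdc2, a secreted protein with a protease inhibitor fold, had 0.759, 5.03 and 25.6 CPM in Ttr-rich libraries, against 0, 0.141 and 0.457 CPM in Ttr-poor libraries. The 2 sides do not overlap for either gene, but the Ttr-poor values of Wfdc2 rest on 17 counts in 16 libraries. A count of 0 in a Ttr-poor library allows a level of up to 0.315 to 0.559 CPM, depending on its total.

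The other 5 secreted genes overlapped between the sides. F5, coagulation factor V, averaged 11.7 ± 11.0 CPM in Ttr-rich libraries and 0.606 ± 0.430 CPM in Ttr-poor libraries (SD, n = 14 and 16). Lbp, which binds bacterial lipopolysaccharide, averaged 17.2 ± 12.0 CPM in Ttr-rich and 2.01 ± 1.44 CPM in Ttr-poor libraries. Sostdc1, an antagonist of BMP and Wnt signals, averaged 11.4 ± 11.1 CPM in Ttr-rich and 1.23 ± 0.590 CPM in Ttr-poor libraries. Enpp2, the enzyme autotaxin that makes lysophosphatidic acid, is also made by oligodendrocytes, and Igfbp2 binds insulin-like growth factors. Enpp2 averaged 725.8 ± 414.1 CPM in Ttr-rich libraries and 195.8 ± 69.4 CPM in Ttr-poor libraries, and Igfbp2 averaged 128.2 ± 72.6 CPM in Ttr-rich and 46.1 ± 17.3 CPM in Ttr-poor libraries. Their ratios of 3.71 and 2.78 were the lowest of the secreted genes.

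Per length, on the deposited FPKM scale (fragments per kilobase of transcript, scaled to the library), Ttr stood far above every other member. It averaged 2138 ± 1520 FPKM on the Ttr-rich side (SD, n = 14) and 18.9 FPKM on the Ttr-poor side. Next on the Ttr-rich side came Enpp2 with 127.8 ± 76.3, Igfbp2 with 70.6 ± 40.4 and 1500015O10Rik with 69.2 ± 63.9 FPKM, the last pair differing by less than their spread. On the Ttr-poor side Enpp2, at 33.9 FPKM, and Igfbp2, at 25.0 FPKM, averaged above Ttr.

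Ion and water transport was split. Of 12 genes, 7 were at least 2-fold higher in the means and 2 had no overlap, and the median ratio was 4.42. Kcne2, a potassium channel subunit, had 1.06, 9.79 and 43.5 CPM (lowest, median, highest) in Ttr-rich libraries, against 0, 0.242 and 0.559 CPM in Ttr-poor libraries, a ratio of means of 62.0. Aqp1, the water channel of the epithelium's ventricular face, had 0.760, 6.17 and 27.3 CPM in Ttr-rich libraries, against 0, 0.215 and 0.525 CPM in Ttr-poor libraries, a ratio of 37.6. Both genes were separate between the sides, by a narrow gap in Aqp1, whose lowest Ttr-rich and highest Ttr-poor values rest on 4 and 3 counts.

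Kcnj13, an inward rectifier potassium channel, averaged 13.6 ± 13.4 CPM in Ttr-rich libraries and 0.547 ± 0.507 CPM in Ttr-poor libraries. Slc4a5, a sodium bicarbonate cotransporter, averaged 12.3 ± 10.3 CPM in Ttr-rich and 0.574 ± 0.807 CPM in Ttr-poor libraries. By contrast, Slc12a2, the sodium, potassium and chloride cotransporter that drives fluid secretion, had a ratio of only 1.30, with 57.5 ± 19.3 CPM in Ttr-rich and 44.3 ± 17.7 CPM in Ttr-poor libraries. Car12 and Car14, membrane carbonic anhydrases, the anion exchanger Slc4a2 and the monoamine carrier Slc29a4 also stayed under 2-fold, with ratios of 1.84, 1.59, 1.63 and 1.44. These 5 genes had means of 13.2 to 44.3 CPM in Ttr-poor libraries, where Ttr averaged 23.5 CPM.

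Among 10 nutrient carriers and receptors, 6 were at least 2-fold higher in the means on the Ttr-rich side, none without overlap, and the median ratio was 2.39. Folr1, the folate receptor through which the plexus supplies the brain with folate, averaged 10.3 ± 11.4 CPM in Ttr-rich and 0.249 ± 0.228 CPM in Ttr-poor libraries, a ratio of 41.4. Kl, the co-receptor for FGF23 also shed into the fluid as alpha-klotho, averaged 32.8 ± 28.7 CPM in Ttr-rich and 4.34 ± 4.64 CPM in Ttr-poor libraries. Prlr, the prolactin receptor, averaged 9.95 ± 7.08 CPM in Ttr-rich and 2.03 ± 1.66 CPM in Ttr-poor libraries. The members Htr2c and Slc23a2 were lower in the mean on the Ttr-rich side. Htr2c, the serotonin receptor that neurons also carry, averaged 20.4 ± 7.90 CPM in Ttr-rich and 31.6 ± 18.8 CPM in Ttr-poor libraries. Slc23a2, a vitamin C transporter of neurons as well as plexus, averaged 56.6 ± 22 CPM in Ttr-rich and 80.4 ± 33.1 CPM in Ttr-poor libraries.

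Of 12 junction and structural genes, 9 were at least 2-fold higher in the means and 1 had no overlap, with a median ratio of 15.3, the highest of the 5 roles. Tmem72, a membrane protein, had 0.769, 8.48 and 32.0 CPM in Ttr-rich libraries, against 0, 0.265 and 0.701 CPM in Ttr-poor libraries, where the nearest libraries of the sides held 5 and 4 counts. Krt8 and Krt18, paired keratins of simple epithelia, averaged 4.7 ± 3.74 and 11.5 ± 9.34 CPM in Ttr-rich libraries, against 0.274 ± 0.244 and 0.605 ± 0.477 CPM in Ttr-poor libraries. Steap1, a metalloreductase, had a ratio of 29.4 and Calml4, a calmodulin-like protein, of 20.7. Cldn2, a cation-passing tight junction protein of leaky epithelia, had a ratio of 13.4, whereas Cldn1, which is shared with other barriers, had 2.00.

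Of 4 transcription factors, Msx1 and Otx2 passed the filter. Msx1 averaged 12.5 ± 8.67 CPM in Ttr-rich and 2.40 ± 1.22 CPM in Ttr-poor libraries. Otx2, which maintains plexus identity, averaged 11.0 ± 10.1 CPM in Ttr-rich and 3.88 ± 6.46 CPM in Ttr-poor libraries, and its Ttr-poor values reached 24.8 CPM, above the Ttr-rich median of 9.07 CPM. Otx2 is also made in parts of the midbrain and thalamus. Lmx1a averaged 1.56 ± 0.998 CPM in Ttr-rich and 0.575 ± 1.05 CPM in Ttr-poor libraries. Tfap2a averaged 0.180 ± 0.269 CPM in Ttr-rich and 0.843 ± 1.66 CPM in Ttr-poor libraries. Both are levels of a few counts per library.

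**Figure D2:**
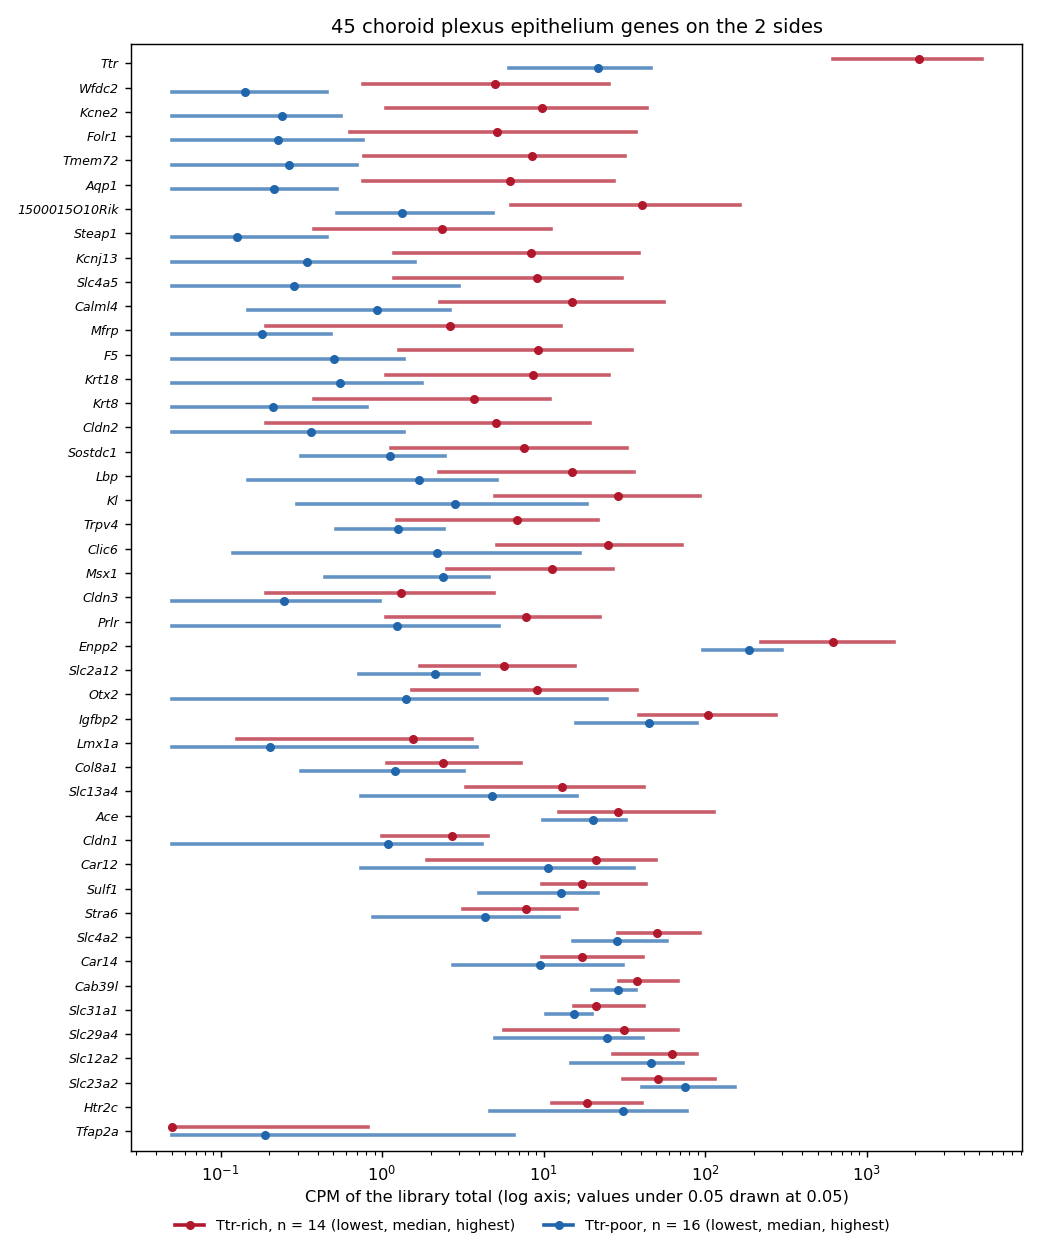
Of the 46 choroid plexus epithelium genes, 45 in the 14 Ttr-rich (red, upper line) and 16 Ttr-poor libraries (blue, lower line), in CPM of the library total on a log axis, ordered by the ratio of means. Lines run from the lowest to the highest library and points are medians. The ratio runs from 108.9 for Ttr to 0.214 for Tfap2a, and the ranges separate in 6 genes, Ttr included.

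How closely the genes tracked Ttr was described by Spearman's rho over the 42 libraries, which share depth, dissection and label. Above 0.7 lay 43 of the 16619 genes (0.259%), of which 23 were members of the choroid set, Ttr itself included in both counts, and above 0.5 lay 429 (2.58%). Outside all lists, the closest was 2900040C04Rik with a rho of 0.89, at 2.25, 10.4 and 39.0 CPM (lowest, median, highest) in Ttr-rich libraries, against 0, 0.310 and 0.809 CPM in Ttr-poor libraries. Among genes with other symbols it was Prr32, a proline-rich protein gene on the X chromosome, with a rho of 0.87. Prr32 had 0.530, 4.21 and 17.1 CPM in Ttr-rich libraries, against 0, 0.121 and 0.521 CPM in Ttr-poor libraries. Its lowest Ttr-rich and its highest Ttr-poor library held 4 counts each, so the missing overlap of Prr32 rests on the library totals. Gpx8, an endoplasmic reticulum peroxidase (rho 0.83), averaged 13.2 ± 7.34 CPM in Ttr-rich and 3.62 ± 1.41 CPM in Ttr-poor libraries. Slc16a8, a lactate carrier known from plexus and retinal pigment epithelium (0.80), averaged 5.89 ± 4.86 CPM in Ttr-rich and 0.315 ± 0.228 CPM in Ttr-poor libraries.

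The next of the 15 closest genes outside the lists were Wdr86, Baiap2l1, Drc7, Llgl2 and Rd3, with rho between 0.74 and 0.79. Baiap2l1 shapes actin under the membrane and Llgl2 sets the polarity of epithelial cells, while Drc7 belongs to the dynein regulatory complex of motile cilia. Drc7 averaged 14.6 ± 11.7 CPM in Ttr-rich libraries and 1.42 ± 0.812 CPM in Ttr-poor libraries. The rest, Mlf1, Rab20, Cox8b, Erich2, Acot1, Col8a2 and Tctex1d4, had rho between 0.70 and 0.72, and their ratios of means ran from 1.46 for Acot1, a cytosolic acyl-CoA thioesterase, to 7.31 for Cox8b, a cytochrome oxidase subunit.

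Under -0.5 lay 227 genes (1.37%), and the 10 lowest had ratios of means from 0.509 to 0.749. Apc2, a neuronal relative of the Wnt regulator Apc, was the lowest, with a rho of -0.73 and 100.1 ± 14.4 CPM in Ttr-rich libraries against 136.0 ± 16.5 CPM in Ttr-poor libraries. The other 9 of the 10 lowest were Zkscan2, Kcnk9, Rab11fip5, Lyrm9, Gria4, Trpm2, Atp8b2, Mdn1 and Ubr4, with rho between -0.70 and -0.62. Kcnk9, a background potassium channel of neurons, had the lowest ratio of these at 0.509, and Gria4, an AMPA-type glutamate receptor subunit, followed at 0.537. All 10 overlapped between the sides.

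Long transcripts weighed less on the Ttr-rich side. Genes in the top quartile of summed exon length took a median of 20.2% of the counts in Ttr-rich libraries and 23.8% in Ttr-poor libraries, and the median ratio was 0.838 for that quartile and 1.15 for the shortest quartile. As medians, ribosomal protein genes took 2.42% of the counts in Ttr-rich and 1.76% in Ttr-poor libraries, and mitochondrial genes 7.41% in Ttr-rich and 6.46% in Ttr-poor libraries. The 10 genes of lowest rho have exon lengths of 6124 bases (Rab11fip5) to 21836 bases (Mdn1). The part of transcript length in their lower levels was not tested.

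A sum was taken over the 17 choroid genes that averaged under 1 CPM on the Ttr-poor side. These 17 were chosen after their values were seen, and by their low levels on the Ttr-poor side, so a lower sum there follows from the choice. They are Wfdc2, F5, Aqp1, Slc4a5, Kcne2, Kcnj13, Folr1, Cldn2, Cldn3, Krt8, Krt18, Calml4, Tmem72, Mfrp, Steap1, Lmx1a and Tfap2a. Their sum ran from 19.1 to 371.2 CPM in Ttr-rich libraries (median 104.4) and from 2.51 to 18.5 CPM in Ttr-poor libraries (median 6.08). Within the 14 Ttr-rich libraries the sum followed Ttr with a rho of 0.98, and within the 16 Ttr-poor libraries rho was 0.33. The 14 join 2 labels whose sums did not overlap, at 125.4 to 371.2 CPM for hippocampus and 19.1 to 83.5 CPM for cerebellum.

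On the Ttr-rich side the proportion of Ttr to these genes differed with the label. Ttr stood at 13.7 to 20.6 CPM per CPM of the sum in the 7 Ttr-rich libraries labelled hippocampus (median 16.3), and at 19.3 to 32.5 in the 7 labelled cerebellum (median 27.9). Only 2 cerebellum-labelled libraries, control 3 at 19.3 and western 5 at 20.9, reached into or next to the hippocampus range, and these were the 2 with the most Ttr of their label. The proportion was 1.2 to 8.74 in Ttr-poor libraries, with medians of 3.83 in the hippocampus label and 2.54 in the cerebellum label. In the libraries on neither side the medians were 15.4 in the hippocampus label and 16.1 in the cerebellum label. The proportion of the cerebellum label was thus clearly higher only on the Ttr-rich side, where the labels also differed in Ttr. On neither side the medians lay close, with ranges of 8.09 to 22.4 in the hippocampus label and 5.59 to 22.95 in the cerebellum label. Since Ttr both chose the libraries and enters the proportion, no test was made.

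**Figure D3:**
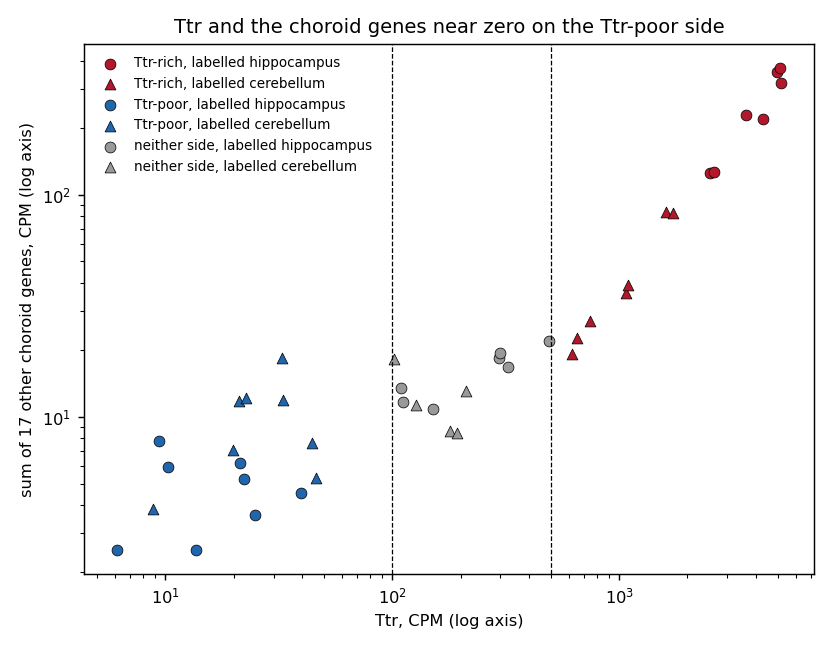
Ttr (CPM, log axis) against the sum of 17 other choroid genes (CPM, log axis) in the 42 libraries, coloured by side, with circles for the hippocampus label and triangles for the cerebellum label. The Ttr-rich libraries form a line (rho 0.98, n = 14), and the Ttr-poor libraries scatter more (rho 0.33, n = 16). The genes were chosen for low levels in the Ttr-poor libraries, whose sums lie between 2.51 and 18.5 CPM.

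The 12 libraries on neither side had not formed the contrast, so the relation was tested there. Their Ttr ran from 101.5 to 490.3 CPM and the sum of the other 45 choroid genes from 479.8 to 961.0 CPM. The relation was not detectable, with Pearson's r of 0.13 on the log2(CPM + 1) scale (two-sided permutation p = 0.685) and Spearman's rho of 0.05 (p = 0.888). Without the 2 libraries farthest from the median of Ttr, r was 0.26 and rho 0.28. With the 17 genes in place of the 45, an alternative added after seeing the data, r was 0.51 (p = 0.0875) and rho 0.43 (p = 0.169), which did not pass either, and r was 0.24 without the 2 farthest libraries. The sum of the 45 is led by Enpp2 and other genes with a high level in Ttr-poor libraries, which amounted to 402.0 to 876.4 CPM there.

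Within the hippocampus label the separation was wider than within the cerebellum label. Of 16595 genes described there, 141 (0.85%) were higher without overlap in the 7 Ttr-rich than in the 8 Ttr-poor libraries, and 30 of the 46 choroid genes were among them. Within the cerebellum label it was 8 of 16568 (0.0483%), with 6 of the 46. At 2-fold in the means, 3.37% of all genes and 41 of the 46 were higher in the hippocampus label. In the cerebellum label it was 1% of all genes and 20 of the 46. Among the 45 without Ttr, 29 in the hippocampus label and 5 in the cerebellum label were higher without overlap. At 2-fold these were 40 in the hippocampus label and 19 in the cerebellum label. The ratio of means of Kcne2 was 123.4 in the hippocampus label and 14.1 in the cerebellum label, and that of Sostdc1 20.2 in the hippocampus label and 2.12 in the cerebellum label. Ttr on the Ttr-rich side differed between the labels in the same direction, by the ranges given above.

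The 4 genes lower without overlap within the hippocampus label (0.0241%) were named after their values were seen. They are Pik3cg, a lipid kinase of immune cells, Adgrl2, an adhesion receptor of synapses, Vwc2l and a gene without a symbol. Adgrl2 was at 13.9 to 32.9 CPM in the Ttr-rich and 36.6 to 71.9 CPM in the Ttr-poor libraries of the label, and Pik3cg at 0.198 to 1.64 CPM in the Ttr-rich and 1.77 to 4.62 CPM in the Ttr-poor ones. In the cerebellum label the ratio of means was 1.06 for Adgrl2 and 1.09 for Pik3cg.

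Genes of ciliated cells were also higher in the means on the Ttr-rich side. Of 15 genes of ependyma and motile cilia, 12 were at least 2-fold higher in the means on the Ttr-rich side (1.19% of all genes). None was without overlap, and the median ratio was 3.55. Within the hippocampus label 10 of the 15 were higher without overlap (0.85% of all genes) and 13 at 2-fold (3.37%), and within the cerebellum label 0 were without overlap and 6 at 2-fold (1%). The sum of the 15 had a median of 128.5 CPM (32.9 to 290.8) in Ttr-rich and 39.7 CPM (21.1 to 93.4) in Ttr-poor libraries. Cfap126 and Rsph1, axoneme proteins of cilia, had the highest rho with Ttr in the list, 0.74 and 0.71. Rsph1 averaged 18.0 ± 11.2 CPM in Ttr-rich and 5.22 ± 2.05 CPM in Ttr-poor libraries. Foxj1, the regulator of motile ciliogenesis, had 7.69, 26.1 and 50.8 CPM (lowest, median, highest) in Ttr-rich libraries, against 3.95, 8.02 and 26.7 CPM in Ttr-poor libraries. Ependymal cells line the ventricle beside the plexus, and plexus epithelium carries cilia itself. Which of them the counts came from cannot be told apart.

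Connective tissue genes differed little over all libraries of the sides. Of 16 genes of leptomeninges and choroid stroma, 0 reached 2-fold in either direction, the median ratio was 1.18 and the sum ran from 325.6 to 2236 CPM in Ttr-rich and from 263.0 to 1655 CPM in Ttr-poor libraries. Islr, a matrix protein, had the largest rho of the list at 0.45, and Igf2, a growth factor made by plexus and meninges, a rho of 0.25 and levels of 1.41 ± 1.51 CPM in Ttr-rich and 0.735 ± 0.603 CPM in Ttr-poor libraries. Within the hippocampus label 4 of the 16 reached 2-fold, against 3.37% of all genes, and the median ratio was 1.62 there and 0.899 in the cerebellum label, against 0.957 and 0.959 over all genes.

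Genes of liver, which also secretes transthyretin, were low in most libraries. Of 9 hepatocyte genes, 3 passed the filter and 0 reached 2-fold, and their sum had a median of 4.81 CPM (1.89 to 86.3) in Ttr-rich and 6.54 CPM (2.25 to 42.4) in Ttr-poor libraries. Alb, serum albumin, was at 0 to 32.8 CPM in Ttr-rich and 0 to 25.9 CPM in Ttr-poor libraries, and its highest value was that of hippocampus western NaKtide 2, a library with 4966 CPM of Ttr. The part of liver transcripts in the level of Ttr was not tested. Fgb, fibrinogen beta, was at 0 to 2.79 CPM in Ttr-rich and 0 to 1.98 CPM in Ttr-poor libraries. Of 7 genes of pineal gland and retinal pigment epithelium, another source of Ttr in the eye, 3 passed the filter and 0 reached 2-fold among those. Rlbp1, which astroglia also express, averaged 20.0 ± 5.14 CPM in Ttr-rich and 16.6 ± 5.43 CPM in Ttr-poor libraries, and Asmt, the last enzyme of melatonin synthesis, was under 1 CPM in every library of both sides. Adipocyte genes had 1 of 5 past the filter, with Cidec at 1.42 ± 2.06 CPM in Ttr-rich and 1.63 ± 5.48 CPM in Ttr-poor libraries and Plin1 under 3 CPM in every library of both sides.

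Genes of white matter were somewhat higher on the Ttr-rich side. All 7 oligodendrocyte genes averaged higher on the Ttr-rich side, with ratios of 1.5 to 1.79, a sum of 5166 to 19211 CPM (median 10605) in Ttr-rich and 2041 to 18086 CPM (median 5812) in Ttr-poor libraries, and none at 2-fold. Opalin and Mog, both of myelin, had rho of 0.50 and 0.44 with Ttr. Gfap, the filament of astroglia that is abundant in fibre tracts, averaged 459.2 ± 274.6 CPM in Ttr-rich and 240.1 ± 98.2 CPM in Ttr-poor libraries, whereas the astrocytic gap junction gene Gja1 averaged 87.5 ± 31.8 CPM in Ttr-rich and 114.8 ± 53.7 CPM in Ttr-poor libraries. In the list of 6 astrocyte genes 0 reached 2-fold and the median ratio was 0.942. The part of white matter in the differences between the sides was not tested.

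The habenular genes Gpr151 and Chrnb4 were higher through a few libraries, while their list of 10 genes of thalamus and habenula had a median ratio of 1.10. Gpr151 averaged 5.85 ± 10.6 CPM in Ttr-rich and 0.662 ± 0.565 CPM in Ttr-poor libraries, and Chrnb4 averaged 3.69 ± 6.46 CPM in Ttr-rich and 0.525 ± 0.447 CPM in Ttr-poor libraries. Their ratios were 8.83 and 7.04, and the other 8 genes of the list stayed under 2-fold, down to a ratio of 0.752. Of the 10, 6 averaged higher on the Ttr-rich side. The sum of the list reached 629.6 CPM in Ttr-rich and 1077 CPM in Ttr-poor libraries. The habenula borders the third ventricle. Dentate granule genes were at least 2-fold higher in 3 of 8 (1.19% of all genes). Among the 8, Dsp averaged 9.08 ± 18.5 CPM in Ttr-rich and 3.09 ± 8.68 CPM in Ttr-poor libraries, and Tdo2 had a ratio of 1.64. The pituitary hormone genes Gh and Prl had ratios of 10.9 and 8.64 that rest on few libraries, since Gh had a median of 1.08 CPM in Ttr-rich and 0.447 CPM in Ttr-poor libraries. Oxt and Avp, hormones of the hypothalamus, had ratios of 0.997 and 1.13. Hcrt and Pmch, peptides of the lateral hypothalamus named after their values were seen, were lower in the mean on the Ttr-rich side, with ratios of 0.338 and 0.443. They averaged 7.64 ± 23.9 and 9.20 ± 25.9 CPM in Ttr-rich libraries, against 22.6 and 20.8 CPM in Ttr-poor libraries.

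Cerebellar genes were lower in the mean on the Ttr-rich side, 7 of 8 at 2-fold (0.969% of all genes), with a median ratio of 0.202. Yet the median library had 62.9 CPM of their sum on the Ttr-rich and 46.4 CPM on the Ttr-poor side. The high sums of the Ttr-poor side were those of cerebellum western 3 and cerebellum control NaKtide 5 given above. Cbln3, a granule cell protein, averaged 6.42 ± 19.3 CPM in Ttr-rich and 103.7 ± 282.3 CPM in Ttr-poor libraries. Car8, of Purkinje cells, averaged 10.5 ± 13.8 CPM in Ttr-rich and 87.2 ± 216.2 CPM in Ttr-poor libraries. Midbrain and monoamine genes showed the same pattern, with 5 of 6 lower at 2-fold in the means (0.969% of all genes). Their sum in the median library was 12.2 CPM on the Ttr-rich and 7.23 CPM on the Ttr-poor side. Their median ratio was 2.44 within the hippocampus label and 0.225 within the cerebellum label. Tph2, the enzyme of serotonin synthesis in neurons, reached 47.8 CPM in Ttr-rich and 274.6 CPM in Ttr-poor libraries, and Slc6a4, the serotonin transporter, 28.8 CPM in Ttr-rich and 142.4 CPM in Ttr-poor libraries.

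The remaining lists had median ratios near that of all genes over the sides as a whole, but not all within the labels. Pyramidal cell genes had a median ratio of 1.03 (Bok 1.49, Wfs1 0.627) and striatal genes of 1.04 (Ppp1r1b 1.15, Adora2a 1.04). Microglial genes had 1.03 (Aif1 1.33, P2ry12 0.812), endothelial and pericyte genes 0.961 (Cldn5 1.21, Flt1 0.821) and blood genes 1.16 (Hbb-bs 1.31, Alas2 0.908). In these 5 lists 0 genes reached 2-fold in either direction over the sides as a whole. The striatal median was 0.475 within the hippocampus label and 2.48 within the cerebellum label, where 6 of 8 genes reached 2-fold (1% of all genes). The blood median was 1.66 within the hippocampus label and 0.957 within the cerebellum label.

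**Figure D4:**
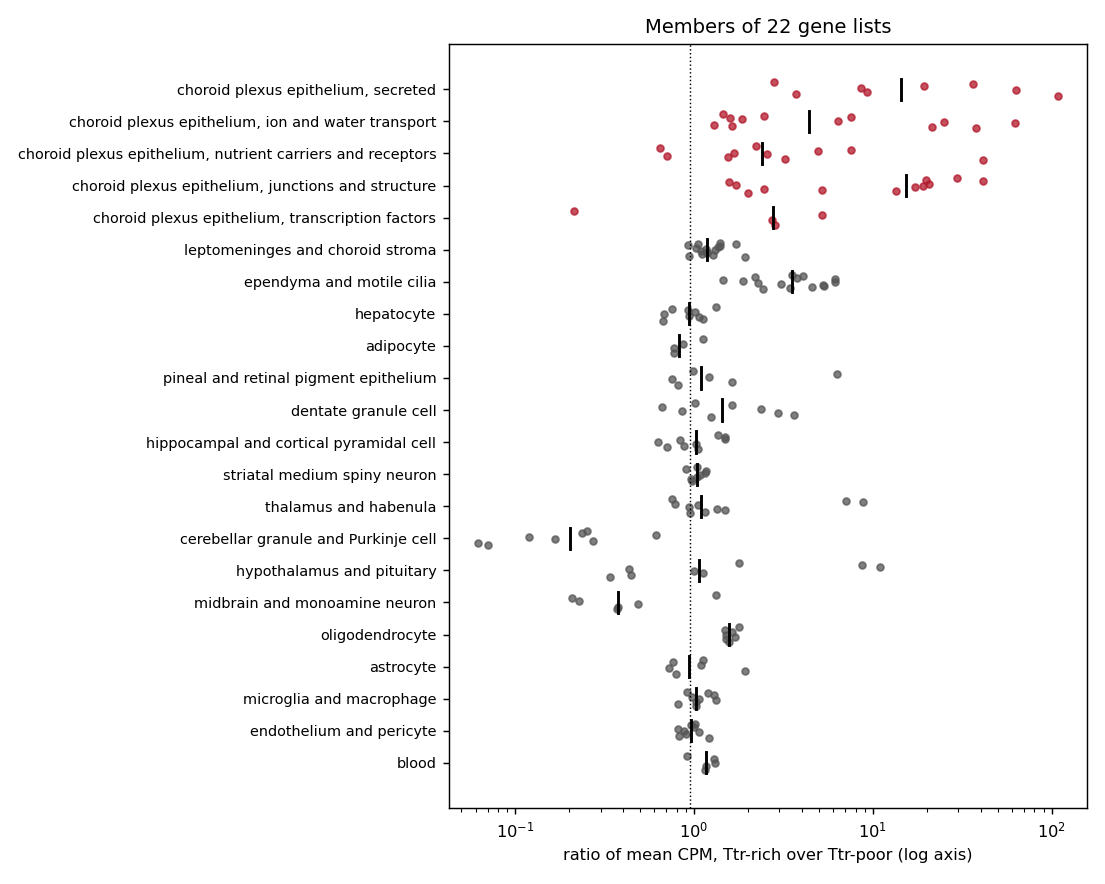
Ratio of mean CPM, Ttr-rich over Ttr-poor libraries (log axis), for the members of 22 gene lists with more than 3 counts on each side. Points are genes, bars are medians of the genes drawn, red marks choroid plexus epithelium, and the dotted line is the median of all genes described, 0.948. The medians of choroid plexus and ciliated cell lists stand to the right, and cerebellar and midbrain lists to the left.

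The labels had not been used to choose the sides, so choroid genes were tested between labelled groups, across all genes and with every library, with edgeR's quasi-likelihood test and Benjamini-Hochberg adjustment. Ttr itself passed in none of the 5 comparisons. Each group held 1 to 3 Ttr-rich libraries, and the SE of its log2 fold change ran from 0.80 to 1.66. For western NaKtide minus western it stood at 0.76 on the log2 scale (SE 1.63, adjusted p = 0.739) in the hippocampus label and 0.80 (SE 1.32, adjusted p = 1.00) in the cerebellum label. For western minus control it was -1.39 (SE 1.66, adjusted p = 0.626) in the hippocampus label and -0.58 (SE 1.32, adjusted p = 0.83) in the cerebellum label. For hippocampus minus cerebellum it was 1.56 (SE 0.80, adjusted p = 0.408).

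In the hippocampus label, 5542 of 16442 genes (33.7%) were called between western NaKtide and western libraries, and 2686 of them (16.3%) fell. Of the 46 choroid genes 45 were tested and 1 was called, against that background. The median of the choroid genes was 0.69 on the log2 scale, with 38 of 45 above 0, and that of all genes 0.05. The choroid median was -1.02 without hippocampus western NaKtide 2 and -0.12 without the Ttr-rich libraries. It was -0.03 with log2 Ttr as a covariate and -0.01 with the replicate number as a block. Slc23a2 fell by 0.91 on the log2 scale (SE 0.21, adjusted p = 0.00475). It stood at 34.9, 57.7, 52.5, 70.7, 47.1 and 61.0 CPM in western NaKtide 1 to 6, against 80.9, 154.3, 137.1, 108.5 and 69.8 CPM in western 1 to 5. Western 5 and western NaKtide 4 overlap by less than 1 CPM, and the Ttr-rich library of each group (western NaKtide 2 and western 1) lies inside its group's range.

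Without the Ttr-rich libraries 4 of 37 choroid genes tested were called, against 32.6% of all 17136 genes. They were Slc23a2 (log2 -0.99, adjusted p = 0.00668), Kl (-2.04, SE 0.53, adjusted p = 0.0114), Cldn1 (-1.86, adjusted p = 0.0189) and Stra6, the retinol receptor (-1.08, adjusted p = 0.0460), all lower with NaKtide. The same 4 were among the 5 of 45 that passed with log2 Ttr as a covariate (35.4% of all genes). Leaving out hippocampus western NaKtide 2 alone also gave 4 of 45 (32.2%). These shares are below those of all genes. The libraries left out, and the covariate, were set by Ttr, which many choroid genes followed, so these calls depend on that choice. With every library only Slc23a2 was called. Kl was at 93.3 CPM in western NaKtide 2 and 41.0 CPM in western 1, the Ttr-rich ones. In the others it was at 2.37, 0.297, 2.25, 1.92 and 3.89 CPM in western NaKtide 1, 3, 4, 5 and 6, against 4.67, 7.06, 18.5 and 8.64 CPM in western 2 to 5, with no overlap.

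Of all genes, 5581 were called without the Ttr-rich libraries and 5828 with the covariate, close to the 5542 with every library. Of the 5542, 87.1% were called without the Ttr-rich libraries and 98.3% with the covariate.

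No choroid gene was called by edgeR in the other comparisons. Between western and control libraries of the hippocampus label 0 of 16442 genes (0%) passed in edgeR and 829 in DESeq2, while 4046 (24.6%) had an unadjusted edgeR p under 0.05. Among the 45 choroid genes tested 3 were at an unadjusted p under 0.05, led by Slc23a2 (log2 0.57, SE 0.21, adjusted p = 0.121) and Sulf1, a heparan sulfate sulfatase (-1.14, SE 0.49, adjusted p = 0.164). The count of 0 rests on single libraries. It was 515 without hippocampus control 6, 345 without hippocampus western 5, and 1 to 31 without any 1 of hippocampus control 5, control NaKtide 1 or 4, or western NaKtide 2, 3 or 5. Without the libraries of 5 CPM or more of Xist, which include control 5 and 6, it was 2209. The median of the choroid genes was -0.76 on the log2 scale, with 40 of 45 below 0, and that of all genes -0.03. That median was -0.06 without hippocampus control 4, -0.08 without the Ttr-rich libraries and 0.30 with log2 Ttr as a covariate. The 3 choroid genes at an unadjusted p under 0.05 became 15 without hippocampus western 1 and 1 without hippocampus control 4 or western 2, 4 or 5. These libraries share the western group with the comparison above.

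In the cerebellum label 0 of 16338 genes (0%) passed in edgeR between western NaKtide and western libraries and 1 in DESeq2, while 679 (4.16%) had an unadjusted edgeR p under 0.05. Of 38 choroid genes tested 0 were at an unadjusted p under 0.05 by edgeR and 1 by DESeq2, and 7 by edgeR without cerebellum western 5. With every library the smallest was that of Otx2 (log2 -1.86, SE 0.92, adjusted p = 1.00), followed by Slc13a4, a sulfate carrier (-0.84, SE 0.55, adjusted p = 1.00). Between western and control libraries 1 gene (0.00612%) was called in edgeR, which is no choroid gene, and 153 in DESeq2, with 3192 genes (19.5%) and 2 of the 38 choroid genes at an unadjusted p under 0.05. Igfbp2 was 1 of these 2 (-0.81, SE 0.31, adjusted p = 0.186). Without cerebellum control 5 edgeR called 841 genes, 453 higher and 388 lower, and 0 choroid genes, and without any other single library 1 or 2 genes. The 2 choroid genes at an unadjusted p under 0.05 became 12 without cerebellum western 5, 7 without control 5 and 4 without control 3 or western 3.

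Between hippocampus and cerebellum labels the choroid genes leaned one way. The median log2 fold change of the 45 tested was 1.10, with 43 above 0, against -0.01 over 17088 genes, and 27 of the 45 were at an unadjusted p under 0.05, against 12.8% of all genes. After adjustment 8 genes (0.0468%), all lower, and 0 choroid genes passed in edgeR, and DESeq2 called 2 choroid genes, Kcnj13 and Kl. In edgeR Kcnj13 stood at 2.45 on the log2 scale (SE 0.67, adjusted p = 0.133) and Stra6 at 0.79 (SE 0.22, adjusted p = 0.141). The 27 fell to 13 without hippocampus western 1 (median 0.78), to 13 without hippocampus western NaKtide 2 (median 0.60), to 9 with log2 Ttr as a covariate (median 0.23) and to 3 with the replicate number as a block (median 0.61), where 10.8% of all genes were. Without the Ttr-rich libraries 6 of 40 were at an unadjusted p under 0.05, against 13.7% of all genes, and their median was -0.12. Leaving out 1 library gave 0 to 13 genes called.

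**Figure D5:**
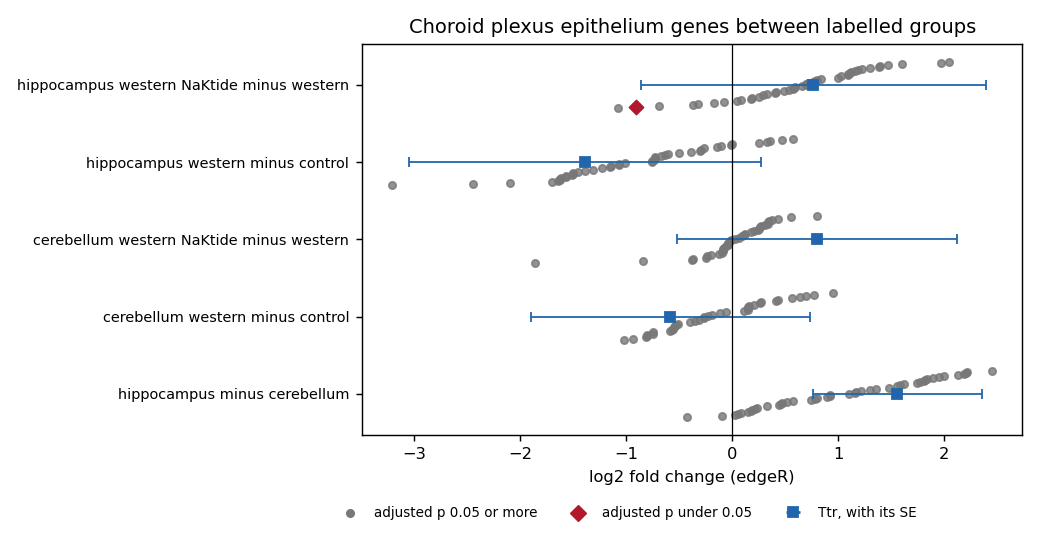
Log2 fold changes (edgeR) of the tested choroid plexus epithelium genes in 5 comparisons between labelled groups. Grey points are genes with an adjusted p of 0.05 or more, the red diamond is Slc23a2 with an adjusted p of 0.00475, and blue squares are Ttr with its SE, which spans 0 in 4 of the comparisons.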

How the data were processed

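Per the labels' protocols, the 42 mouse brain libraries were made with a kit for stranded mRNA. The submitters' processing notes list the tools Trimmomatic 0.38, HISAT2 2.1.0 and DESeq2 1.20.0 and the genome build GRCm38, without their roles. The counting tool and gene annotation were not given in the sources used. The authors deposited raw counts for 54232 genes and FPKM values derived from them. Here the counts were used for all tests and CPM, and the deposited FPKM only for levels between genes. The deposited table of normalized counts was not used here. Symbols were found for 54079 gene IDs.

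CPM is the count over the column total. Genes with a mean of at least 1 CPM were described, and a gene counted as higher or lower where the sides did not overlap and the means differed 2-fold. Labels were compared over the sides by Fisher's exact test, adjusted over 7 tests. Labelled groups were compared on counts with edgeR 4.0.16 in R 4.3.3 (TMM, filterByExpr, quasi-likelihood F test, adjusted p under 0.05), all groups of a region label in 1 fit and all 42 libraries for hippocampus minus cerebellum. The SE was derived from the fold change and the F statistic. The relation in the 12 libraries on neither side was tested with 100000 permutations. Intervals are Wilson intervals at 95%, and they and the floor of 3 counts cover counting error only. Both descriptions and fits were tested on simulated data.

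Alternatives were other limits (1000 or 50 CPM, or 1 limit of 200 CPM for the labels), TMM factors, no filter, a fold of 4, each region label alone, DESeq2 1.42.0, its size factors in edgeR, the compared groups only, a replicate block, a Ttr covariate, no Ttr-rich libraries, hippocampus control 5 and 6 as 1, no libraries of 5 CPM or more of Xist, and leaving out each library in turn. Named genes are Ttr and up to 3 genes per role list, by rho with Ttr and by ratio, the 15 highest and 10 lowest rho outside the lists, 2 per other list by absolute rho, and 2 choroid genes of smallest p per labelled comparison; others are context. The values of 1 choroid gene are not reported here, though it is counted in the set. The members and all gene lists were chosen with earlier results of these data known. Tissues and groups were taken from the sample labels, as the series' design text names liver and adipose tissue instead.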

Additional observations from a re-analysis of the deposited data

Results flagged for a closer look

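Of the 16 combinations of labelled group and measure examined, 7 held a library far from the rest of its group. The limit flags about 1 group in 20 where values are normally distributed, which was not checked here. The measures were Ttr, which chose the sides, and a sum with a rho of 0.74 to it over the 42 libraries. The 7 are therefore not an excess over chance that was tested. The distance is the gap to the nearest library over the group's whole range. For Ttr these were cerebellum control NaKtide 3 with 619.2 CPM (0.7102 of the range, just past the limit of 0.71), cerebellum western 5 with 1726 CPM (0.979), hippocampus western NaKtide 2 with 4966 CPM (0.980) and hippocampus western 1 with 2608 CPM (0.945). For the sum of the other 45 choroid genes they were hippocampus western NaKtide 2 with 3365 CPM (0.890), hippocampus western 1 with 1622 CPM (0.859) and hippocampus control 4 with 3065 CPM (0.635). Hippocampus western NaKtide 2 and hippocampus western 1 stood apart in both measures, and each is the Ttr-rich library of a group of which the other members had at most 111.0 and 151.2 CPM of Ttr.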

How the results depend on the processing

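With 1000 CPM as the upper limit 21 genes were higher without overlap, 15 of them choroid genes. In the hippocampus label alone there were 141 (0.85% of all genes), with 30 choroid genes, and 4 genes lower (0.0241%). In the cerebellum label alone 20 choroid genes reached 2-fold in the means (1% of all genes). In the 12 libraries on neither side rho turned to -0.036 with hippocampus control 5 and 6 averaged (permutation p = 0.923) and to -0.18 without Xist-marked libraries (exact permutation p = 0.644), both added after seeing the data; the cause was not tested. For hippocampus western NaKtide minus western, 4 of 37 choroid genes were called without the Ttr-rich libraries, against 32.6% of all genes. With log2 Ttr as a covariate it was 5 of 45, against 35.4% of all genes. For hippocampus minus cerebellum DESeq2 called 2 of 45 choroid genes and 87 of all 17072 genes.

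Leaving out 1 library gave 8 to 10 genes higher, 0 to 0 lower, 6 to 8 choroid genes without overlap and 30 to 32 at 2-fold. Choroid genes called ranged from 1 to 4 for hippocampus western NaKtide minus western, with 4 without hippocampus western NaKtide 2, and from 0 to 0 in the other comparisons. The log2 fold change of Ttr there ranged from -3.08 (without western NaKtide 2, adjusted p = 0.130) to 4.29, for hippocampus western minus control from -4.91 to -0.27, for cerebellum western NaKtide minus western from 0.49 to 4.63, for cerebellum western minus control from -4.43 to 0.47 (without cerebellum control 3), and between the region labels from 0.60 to 2.51.

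Whether replicate numbers pair the samples was not settled. The correlation of same-numbered libraries, as deviations from their group means, had a median of -0.06 within the cerebellum label (-0.47 to 0.63). It was -0.11 within the hippocampus label (-0.48 to 0.42) and -0.03 between labels (-0.43 to 0.58). With so wide a spread, these medians cannot exclude that some same-numbered libraries share an animal. With the replicate number as a block, hippocampus western NaKtide minus western had 5221 genes and 1 choroid gene called, and the log2 fold change of Ttr turned to -1.37 (adjusted p = 0.678). Choroid genes called stayed at 0 in the other 4 comparisons, where Ttr had -0.91 for hippocampus western minus control, 2.28 for cerebellum western NaKtide minus western, -1.09 for cerebellum western minus control and 0.23 between the region labels. Under the other alternatives, the counts of choroid genes and the shares of labels kept their side of the threshold. Their directions held too, apart from the region label. Its difference was 0 in the main test. The hippocampus share was higher by 13.3 percentage points with 1000 CPM, 10 with 1 limit of 200 CPM and 3.33 without Xist-marked libraries. The limit of 50 CPM and the sum of control 5 and 6 moved no library between the sides, so they could not change the shares. The fold changes of Ttr kept direction and side of the threshold, with 1 exception. For hippocampus minus cerebellum, the log2 fold change of Ttr was -0.0059 with log2 Ttr as a covariate. That covariate is Ttr itself, so fold changes of Ttr beside it say nothing of stability. Counts over all genes and medians of choroid genes did not keep theirs. For hippocampus western minus control edgeR called 60 genes with the compared groups only, 39 with control 5 and 6 summed, 8 without the filter and 2209 without Xist-marked libraries, against 0. The choroid median of cerebellum western minus control was -0.24 and turned to 0.06 with log2 Ttr as a covariate and to 0.34 without cerebellum control 3. For hippocampus minus cerebellum 43 genes were called without Xist-marked libraries, 87 by DESeq2, 2 with log2 Ttr as a covariate or control 5 and 6 summed, and 0 with the block or without the Ttr-rich libraries, against 8. For cerebellum western NaKtide minus western 1 was called without cerebellum western 1. Depth limits the genes under 1 CPM, where a count of 0 allows up to 0.315 to 0.643 CPM.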
